A study of Mus musculus with 6 samples.

Results

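Plasmacytoid dendritic cells (pDCs) of the mouse thymus that carried yellow-green fluorescent microspheres (YG+ pDCs) were compared with thymic Sirpa+ dendritic cells (DCs) of mice given PBS. The comparison takes the 4 libraries that bear these titles, 2 per group, of 6 in the series, and the other 2 libraries are PBS pDCs. RNA was sequenced from cells sorted out of the thymus of wild-type mice. The YG+ pDCs were CD11c-low and B220+ and came from mice with MC38 tumours, a colon carcinoma line, labelled as 2 weeks with YG. Tumour cells had been placed under the skin 12 days before the microspheres were injected in the tumour, and the cells were sorted 2 days after that injection. The Sirpa+ DCs were CD11c-high and Sirpa+ and came from mice labelled as 2 weeks of PBS. The PBS pDCs had the gate of the YG+ pDCs and the treatment of the Sirpa+ DCs. All libraries are labelled batch 1. The labels leave unsaid whether the PBS mice bore tumours, how many mice gave each library, and whether replicates are separate mice. Cell type, microspheres, the gate on them and the tumour therefore cannot be told apart in this comparison, and a p-value here reflects only the spread among the libraries, which may be technical.

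pDCs sense viral nucleic acids with endosomal Toll-like receptors and release type I interferon, and their identity depends on the transcription factor TCF4. They reach the thymus from the blood, with CCR9 as a homing receptor, and can carry antigen there. Thymic Sirpa+ DCs are conventional DCs that also arrive from outside the organ, and they present blood-borne antigen on MHC class II to developing T cells. Conventional DCs that mature switch on the actin bundler fascin, the chemokine receptor CCR7 and a set of chemokines and costimulatory proteins.

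Gene totals were 713966 and 565406 counts in YG+ pDCs and 261136 and 525418 in Sirpa+ DCs. Of uniquely placed reads, 3.36% and 2.60% lay in genes in YG+ pDCs and 1.13% and 2.28% in Sirpa+ DCs. The ribosomal precursor Rn45s took 12.7% and 10.6% of gene counts in YG+ pDCs and 7.05% and 9.39% in Sirpa+ DCs. Both shares were higher in each YG+ pDC library than in either Sirpa+ DC library, and their part in the results was not tested. Levels below are CPM, the counts divided by the TMM-scaled total of the tested genes and expressed per 1e6, and paired values are replicate 1 and replicate 2. Values with ± are fitted log2 fold changes of YG+ pDCs over Sirpa+ DCs with their SE. How strand was treated in counting is unknown here. The counts of Tsix were 2.70 and 3.44 times those of Xist, which lies on the other strand, in YG+ pDCs. They were 11.3 and 4.81 times in Sirpa+ DCs and 20.5 and 3.60 times in PBS pDCs. Genes with another gene on the opposite strand over an exon are therefore uncertain and are named as such. Whether the strand setting also bears on the levels of all other genes was not tested.

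YG+ pDCs differed from Sirpa+ DCs in both directions. Of 8141 genes tested, 583 (7.16%) passed an adjusted p of 0.05 in edgeR's quasi-likelihood test, and these are the genes said to be called, to rise or to fall. They were 250 genes (3.07%) higher in YG+ pDCs and 333 (4.09%) lower. The median size of the change was 3.02 on the log2 scale among the higher genes and 2.65 among the lower ones, and the smallest called change was 1.43. Of the higher genes, 34.0 had no count in either Sirpa+ DC library, and 6.0 of the lower genes had none in either YG+ pDC library. The median log2 fold change over all genes tested was 0.04. All 6 libraries entered 1 fit, so the spread between the PBS pDC libraries bears on these calls. The number of calls was 1480 in a fit of the 4 compared libraries, and 1487 and 1467 without PBS pDC replicate 1 and 2. It was 271 and 176 without YG+ pDC replicate 1 and 2, and 69 and 115 without Sirpa+ DC replicate 1 and 2, where the lone library left in a group is assumed to vary like the others. None of the 583 genes changed direction in any of these fits, and 51 (27 higher and 24 lower) were called in each of the 6 fits that left out a library. The plot of fold change against mean level shows where the called genes lie.

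**Figure D1:**
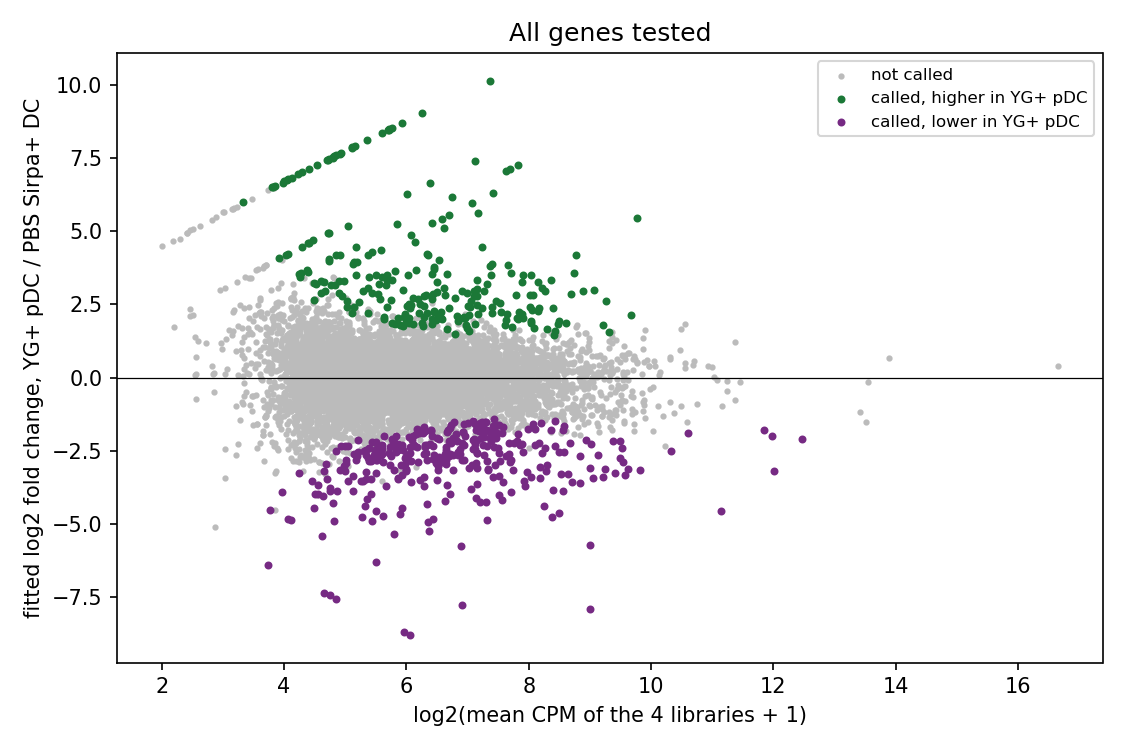
Fitted log2 fold change of YG+ pDCs over Sirpa+ DCs (vertical axis) against log2(mean CPM + 1) of the 4 libraries (horizontal axis), 1 point per gene tested. The 250 genes called higher (green) and 333 called lower (purple) all changed by at least 1.43 on the log2 scale, and the other genes are grey.

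The subset markers differed in the direction of the labels. Siglech, a lectin receptor of the pDC surface, was 670.01 and 979 CPM in YG+ pDCs and 46.5 and 43.9 CPM in Sirpa+ DCs, so that the fitted difference was 4.19 ± 0.49 with an adjusted p of 0.00137. Klk1, a kallikrein protease gene, was 216 and 333 CPM against 0 and 1.99 CPM (7.40 ± 0.76, adjusted p = 0.00137). In both genes the lower YG+ pDC library was more than 10-fold above the higher Sirpa+ DC library. Fscn1, which encodes the actin bundler fascin, was 754 and 573 CPM in YG+ pDCs against 2827 and 2081 CPM (-1.89 ± 0.43, adjusted p = 0.0240). Cxcl16, a membrane-bound chemokine gene, was 114 and 89.5 CPM against 939 and 1220.2 CPM (-3.40 ± 0.45, adjusted p = 0.00232). Both genes were thus present in each YG+ pDC library at a lower level, and the groups did not overlap, as in every called gene. Transcripts of the gated proteins did not pass the test. Ptprc, the CD45 gene whose long isoform is B220, was 816 and 981 CPM against 237 and 512 CPM (adjusted p = 0.297). Itgax, which encodes CD11c, was 183 and 259 CPM against 436 and 612 CPM (adjusted p = 0.119). Sirpa, a signal regulatory protein gene and the label of the DC subset, was 392 and 306 CPM against 575 and 748 CPM (adjusted p = 0.226). Each of these 3 lay on the side of its gate without overlap of the libraries, as did 62.0% of all genes tested in one direction or the other. Of the 4 called genes named here, 3, 3, 3 and 3 were still called without YG+ pDC replicate 1, YG+ pDC replicate 2, Sirpa+ DC replicate 1 and Sirpa+ DC replicate 2, with a largest adjusted p of 0.445 for Fscn1 without YG+ pDC replicate 2. Siglech, Klk1 and Cxcl16 were called whichever library was left out. Klk1 and Cxcl16 have 15.3% and 18.3% of their exon length under an opposite-strand gene.

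**Figure D2:**
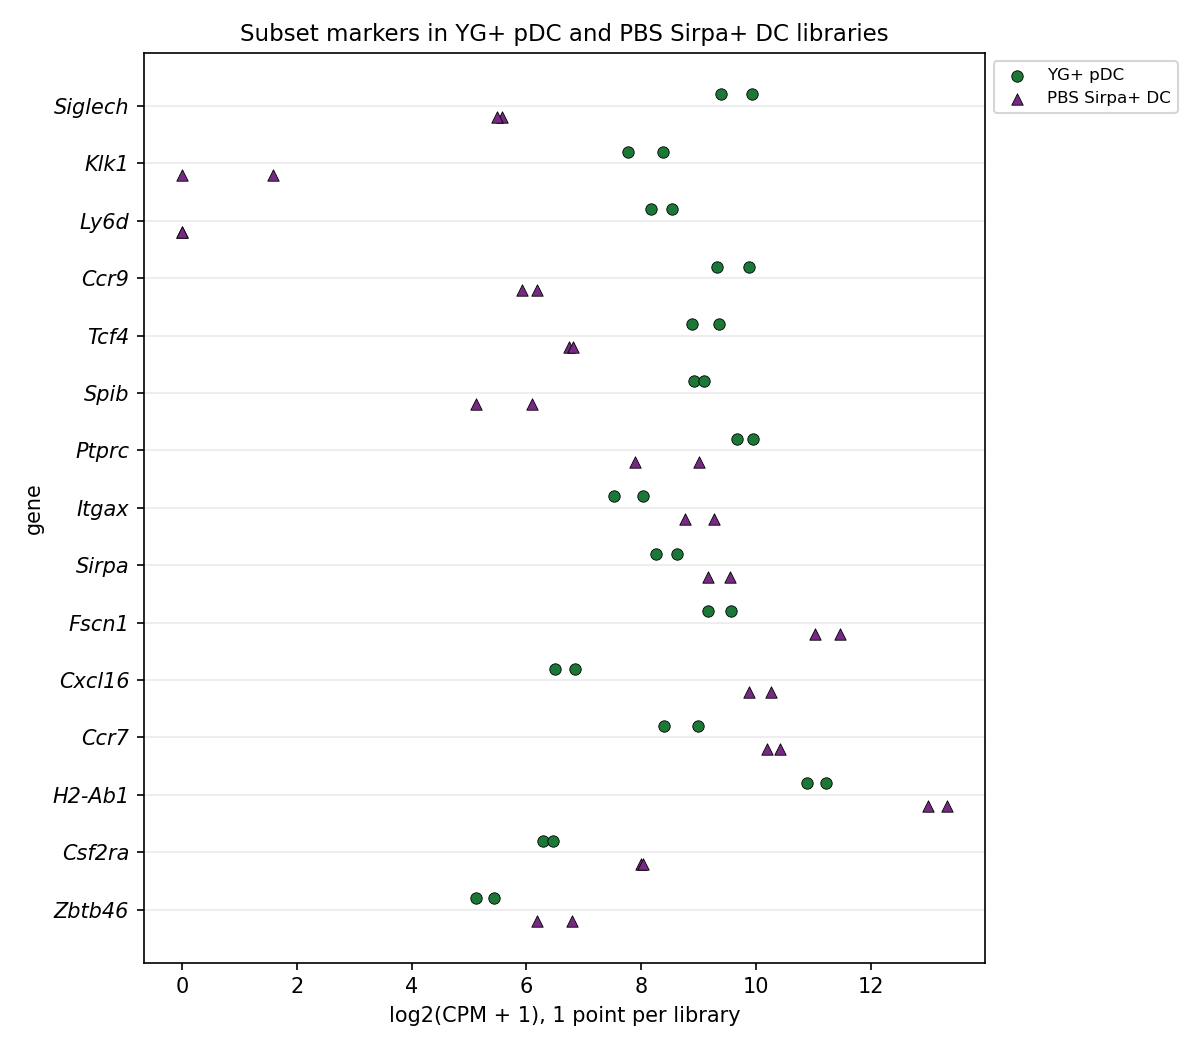
Level of 15 subset markers (rows) as log2(CPM + 1) on the horizontal axis, with 1 green circle per YG+ pDC library and 1 purple triangle per PBS Sirpa+ DC library. Siglech, Klk1, Ly6d, Ccr9, Tcf4 and Spib lie to the right in YG+ pDCs, and Fscn1, Cxcl16, Ccr7, H2-Ab1 and Csf2ra in Sirpa+ DCs.

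The 250 bases before the RefSeq start (GRCm38.p6) of 3 of these markers are shown because 2 of the genes were higher in YG+ pDCs and 1 was lower. Capitals mark E-boxes of the form CAGNTG on either strand, a kind of site that TCF4 and related proteins bind. Other E-box forms, such as CACGTG in the Siglech window, were not searched for. The windows are chr7:55767934-55768183 (+ strand) for Siglech, chr7:44225110-44225359 (+ strand) for Klk1 and chr5:142960105-142960354 (+ strand) for Fscn1.
Siglech: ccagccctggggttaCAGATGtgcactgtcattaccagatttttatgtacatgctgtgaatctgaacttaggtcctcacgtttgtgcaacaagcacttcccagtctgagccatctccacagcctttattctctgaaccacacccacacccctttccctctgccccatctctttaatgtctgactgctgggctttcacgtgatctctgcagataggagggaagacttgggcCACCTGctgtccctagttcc
Klk1: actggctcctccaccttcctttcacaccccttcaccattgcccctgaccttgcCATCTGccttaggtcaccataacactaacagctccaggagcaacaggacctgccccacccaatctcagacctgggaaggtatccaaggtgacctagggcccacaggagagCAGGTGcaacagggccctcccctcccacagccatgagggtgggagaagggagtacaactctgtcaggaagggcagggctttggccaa
Fscn1: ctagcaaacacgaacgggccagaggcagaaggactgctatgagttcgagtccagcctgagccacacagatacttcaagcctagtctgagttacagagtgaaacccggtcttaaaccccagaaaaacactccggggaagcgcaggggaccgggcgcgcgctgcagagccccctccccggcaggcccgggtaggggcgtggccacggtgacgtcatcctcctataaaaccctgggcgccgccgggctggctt
The Siglech and Klk1 windows each hold 2 E-boxes of this form and the Fscn1 window 0. An E-box of this form was in 36.7% of 177 such windows of genes called higher and 43.9% of 223 of genes called lower. The share was 36.5% of 6127 windows of genes tested and 44.5% of all 27025 in the table. A PU box (GAGGAA, either strand), the core that the Ets factors PU.1 and SPIB bind, was in 28.8%, 23.3%, 23.4% and 23.1% of the same sets and in none of the 3 windows. The motifs do not overlap each other in these windows, and a match describes the letters only.

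pDC surface protein genes were higher in YG+ pDCs where they were called. Of 18 tested, 10 rose and 0 fell, with a median log2 fold change of 2.78 against 0.04 over all genes. The members of this and all later lists were chosen with earlier results of these data known. Counts and medians of a list therefore describe the chosen members and are not a test. Over all genes tested, 3.07% were higher and 4.09% lower, which stands beside every list count. Ly6d, a GPI-anchored protein of early B lineage cells and pDCs, was 288 and 370.4 CPM without a count in either Sirpa+ DC library, at least 81.0-fold higher if 3 counts are taken as the floor of the group. Ccr9, the homing receptor gene, was 636 and 943 CPM against 71.9 and 59.8 CPM (3.59 ± 0.48, adjusted p = 0.00246). Ly6c2, which encodes Ly6C, was 201 and 249 CPM against 12.7 and 41.9 CPM (2.90 ± 0.58). The 3 genes thus ranged from none to a clear level in Sirpa+ DCs and were above 200 CPM in each YG+ pDC library. Tex2, a lipid transfer protein gene, was 407 and 560.1 CPM against 38.1 and 45.9 CPM. Klra17, an NK receptor family gene, was 56.2 and 75.2 CPM against 0 and 5.98 CPM. Lifr, the receptor gene for leukaemia inhibitory factor, was 247 and 369 CPM against 46.5 and 79.7 CPM. Each of these was called. Bst2, the antigen of a common pDC antibody, was 740.2 and 950.1 CPM against 385 and 459 CPM and did not pass (adjusted p = 0.204). Leaving out a library gave 3 (without Sirpa+ DC replicate 2) to 15 (without PBS pDC replicate 1) higher members of the list.

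Transcription factor genes of pDCs were higher where they were called. Of 12 tested, 6 rose and 0 fell (median 1.54). Tcf4, the factor that maintains pDC identity, was 473 and 651 CPM against 106 and 112 CPM (2.36 ± 0.47, adjusted p = 0.0136). Spib, an Ets factor of pDCs and B cells, was 485 and 548 CPM against 33.9 and 67.8 CPM (3.28 ± 0.54). Runx2, needed for pDCs to leave the bone marrow, was 565 and 891 CPM against 110.02 and 89.7 CPM. These factors were present in both Sirpa+ DC libraries at lower levels. Irf8, a factor of pDCs and cDC1, was 1117 and 1559 CPM against 262 and 335 CPM (2.16 ± 0.45). Ets1, a lymphoid Ets factor, was 176 and 202 CPM against 0 and 7.97 CPM, with no count in 1 Sirpa+ DC library. Across the fits that left out a library there were 0 (without Sirpa+ DC replicate 1) to 6 (without PBS pDC replicate 2) higher members. Without YG+ pDC replicate 1 or 2, 10 and 7 of the 11 called surface protein and factor genes named were still called, and without Sirpa+ DC replicate 1 or 2 the numbers were 2 and 2, with a largest adjusted p of 0.255 for Irf8 without YG+ pDC replicate 2. Ly6d was called whichever library was left out. Exons of Ccr9 (90.8% of their length) and Runx2 (19.2%) lie under an opposite-strand gene, and Ly6 and Klra genes have close paralogs that can share reads.

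Genes for intracellular and secreted pDC proteins rose in the same direction, 14 of 19 tested, and 0 fell (median 3.08). Mzb1, an endoplasmic reticulum chaperone of antibody-secreting cells and pDCs, was 114 and 93.0 CPM without a count in Sirpa+ DCs (at least 25.4-fold higher). Dntt, the terminal nucleotidyl transferase of lymphoid precursors, was 80.1 and 111 CPM, also without a count in Sirpa+ DCs (at least 23.5-fold). Pacsin1, an endocytosis adaptor gene, was 145 and 259 CPM against 0 and 5.98 CPM (5.58 ± 0.74). These 3 genes were close to or at 0 in both Sirpa+ DC libraries. Cmah, a sialic acid hydroxylase gene, was 140.5 and 189.7 CPM against 0 and 1.99 CPM. Ctsl, a lysosomal protease gene, was 218 and 270.2 CPM against 21.2 and 37.9 CPM (2.96 ± 0.47). With a library left out there were 6 (without Sirpa+ DC replicate 1) to 17 (without PBS pDC replicate 2) higher members. The fits that left out a library kept 5 (YG+ pDC replicate 1), 5 (YG+ pDC replicate 2), 4 (Sirpa+ DC replicate 1) and 4 (Sirpa+ DC replicate 2) of these 5 calls, with a largest adjusted p of 0.0884 for Ctsl without Sirpa+ DC replicate 1. Mzb1, Dntt, Pacsin1 and Cmah were called whichever library was left out. Ctsl has 30.4% and Cmah 4.13% of exon length under an opposite-strand gene.

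Genes of endosomal Toll-like receptor sensing and interferon induction were not called: 0 of 15 tested rose and 0 fell, with a median of 0.13. Tlr7, the RNA sensor gene, was 135 and 141 CPM in YG+ pDCs against 12.7 and 49.8 CPM (1.99 ± 0.62, adjusted p = 0.0782). Tlr9, the DNA sensor gene, was 317 and 372 CPM against 199 and 321 CPM (adjusted p = 0.614). Irf7, the factor that drives interferon genes, was 173 and 200.4 CPM against 292 and 419 CPM (adjusted p = 0.229). The groups overlapped in Tlr9. The interferon genes Ifna1, Ifna2, Ifna4 and Ifnb1 had no count in the 4 libraries. In the fit of the 4 libraries alone 3 members were called higher and 1 lower. Irf7 has 1.19% of its exon length under an opposite-strand gene.

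B lineage genes were higher in YG+ pDCs where they were called. Of 24 listed, 20 were in the files and 16 could be tested, and of these 13 rose and 0 fell (median 4.63). The summed level of the list was 1723 to 1823 CPM in YG+ pDCs, 1754 to 2064 CPM in PBS pDCs and 221 to 385 CPM in Sirpa+ DCs. Pax5, the factor that commits cells to the B lineage, was 64.6 and 53.7 CPM without a count in Sirpa+ DCs (at least 14.5-fold higher). Pax5, which defines B cells rather than pDCs, was thus present in both YG+ pDC libraries, and B cells carry B220, the marker of the gate. Cd79a, a signalling chain of the B cell receptor, was 103 and 76.9 CPM against 4.23 and 3.99 CPM. Cd79b, the other chain, was 94.1 and 100.2 CPM against 8.46 and 9.97 CPM. Fcrla, an Fc receptor-like gene of B cells and pDCs, was 125 and 132 CPM against 4.23 and 3.99 CPM (4.89 ± 0.60, adjusted p = 0.00179). The part of B cells in the results was not tested, and in bulk RNA fewer cells of a type and less RNA per cell cannot be told apart. Leaving out a library gave 5 (without Sirpa+ DC replicate 2) to 13 (without YG+ pDC replicate 2) higher members. Of the 4 called genes named here, 4, 4, 2 and 1 were still called without YG+ pDC replicate 1, YG+ pDC replicate 2, Sirpa+ DC replicate 1 and Sirpa+ DC replicate 2, with a largest adjusted p of 0.0729 for Cd79b without Sirpa+ DC replicate 1. Fcrla was called whichever library was left out. Exons of Pax5 lie under an opposite-strand gene over 10.8% of their length.

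Of 23 T lineage and thymocyte genes in the files 8 could be tested, and 3 of them rose and 0 fell (median 1.69). Cd8b1, a CD8 chain gene, was 147 and 225 CPM in YG+ pDCs against 4.23 and 3.99 CPM (5.42 ± 0.63, adjusted p = 0.00137). Cd8a, the other CD8 chain gene, was 81.5 and 106 CPM against 4.23 and 9.97 CPM. Satb1, a chromatin organiser gene of thymocytes, was 150.3 and 136 CPM against 25.4 and 43.9 CPM. The called genes were at least 3-fold higher in each YG+ pDC library than in either Sirpa+ DC library. Cd3e, a T cell receptor signalling chain that defines T cells, was 0 and 5.37 CPM in YG+ pDCs without a count in Sirpa+ DCs, and Cd3g and Cd28 had no count in the 4 libraries. Cd247, another signalling chain of that receptor, was well expressed, with a log2(mean CPM + 1) of 8.38 over the 4 libraries. It lay in the other direction and was not called (log2 fold change -0.84, adjusted p = 0.426 in edgeR). Across the fits that left out a library there were 1 (without Sirpa+ DC replicate 1) to 5 (without PBS pDC replicate 2) higher members. Without YG+ pDC replicate 1 or 2, 2 and 2 of these 3 called genes were still called, and without Sirpa+ DC replicate 1 or 2 the numbers were 1 and 1, with a largest adjusted p of 0.224 for Satb1 without Sirpa+ DC replicate 1. Cd8b1 was called whichever library was left out. Opposite-strand genes lie over 15.3% of the exon length of Cd3e and 0.673% of Satb1.

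The largest rises, leaving aside genes with opposite-strand partners, predicted genes and receptor segments, included Ly6d, Mzb1, Jakmip1, Pou2af1, Dntt, Blk, Grm8 and Il2rb. All 8 had no count in either Sirpa+ DC library. Jakmip1, a microtubule-associated protein gene, was 111 and 94.8 CPM in YG+ pDCs (at least 25.3-fold higher). Pou2af1, a coactivator gene of B cells, was 101 and 102 CPM. Blk, a Src family kinase gene of B cells, was 70.2 and 64.4 CPM (at least 16.6-fold). Il2rb, which encodes the shared beta chain of the IL-2 and IL-15 receptors, was 67.4 and 41.2 CPM (at least 13.4-fold), and Grm8, a glutamate receptor gene, 57.6 and 53.7 CPM (at least 13.7-fold). Further down the ranking came genes with a few counts in 1 Sirpa+ DC library. The calcium sensor gene Mctp2 was 359.6 and 544 CPM against 0 and 3.99 CPM (7.27 ± 0.73). Cacna1e, a calcium channel gene, was 316 and 463 CPM against 0 and 3.99 CPM (7.05 ± 0.78). The fits that left out a library kept 10 (YG+ pDC replicate 1), 10 (YG+ pDC replicate 2), 9 (Sirpa+ DC replicate 1) and 7 (Sirpa+ DC replicate 2) of these 10 calls, with a largest adjusted p of 0.0783 for Grm8 without Sirpa+ DC replicate 2. Ly6d, Mzb1, Jakmip1, Pou2af1, Dntt, Mctp2 and Cacna1e were called whichever library was left out.

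Under the same filter as for the rises, the largest falls began with Acan, Dcstamp and Cpa3, which had no count in either YG+ pDC library. Acan, a cartilage proteoglycan gene, was 182 and 81.7 CPM in Sirpa+ DCs (at least 55.9-fold lower in YG+ pDCs). Dcstamp, a fusion protein gene of DCs and osteoclasts, was 55.0 and 41.9 CPM in Sirpa+ DCs (at least 20.5-fold lower). Cpa3, a mast cell protease gene, was 25.4 and 23.9 CPM in Sirpa+ DCs (at least 10.4-fold lower). Among the next genes, 2 had clear levels in each Sirpa+ DC library and few counts in YG+ pDCs. Cldn1, a tight junction gene, was 11.2 and 8.95 CPM in YG+ pDCs against 262 and 351 CPM (-4.88 ± 0.56, adjusted p = 0.00137). Zfp366, which encodes the DC nuclear protein DC-SCRIPT, was 4.21 and 7.16 CPM against 173 and 158 CPM (-4.82 ± 0.69, adjusted p = 0.00341). Of the 5 called genes named here, 3, 3, 2 and 3 were still called without YG+ pDC replicate 1, YG+ pDC replicate 2, Sirpa+ DC replicate 1 and Sirpa+ DC replicate 2, with a largest adjusted p of 0.148 for Dcstamp without Sirpa+ DC replicate 1. Of those not called, 1, 1, 1 and 2 did not pass the filter on low counts, and were not tested, in the fits without YG+ pDC replicate 1, YG+ pDC replicate 2, Sirpa+ DC replicate 1 and Sirpa+ DC replicate 2. Cldn1 and Zfp366 were called whichever library was left out. In DESeq2, Acan (adjusted p = 0.321) did not pass.

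Genes of mature DCs were lower in YG+ pDCs where they were called, with 1 exception. Of 29 tested genes of cytoskeleton and migration, 11 fell and 1 rose, with a median log2 fold change of -1.31. Fscn1, given above and not counted again below, was among those that fell. Cacnb3, a calcium channel subunit gene, was 61.8 and 76.9 CPM in YG+ pDCs against 474 and 347 CPM (-2.56 ± 0.46, adjusted p = 0.00907). Anxa3, an annexin gene, was 36.5 and 44.7 CPM against 224 and 263 CPM (-2.59 ± 0.43). Cd63, a tetraspanin gene of endosomes, was 59.0 and 44.7 CPM against 385 and 347 CPM (-2.80 ± 0.47). The higher YG+ pDC library stayed below the lower Sirpa+ DC library by more than 4-fold in these 3 genes. Cdkn1a, the p21 cell cycle inhibitor gene, was 57.6 and 48.3 CPM against 326 and 359 CPM. Socs2, a cytokine signalling inhibitor gene, was 18.3 and 16.1 CPM against 118 and 69.8 CPM. Ccr7, the receptor that draws mature DCs along lymphatics, had 507 and 336 CPM against 1371 and 1168 CPM and missed the threshold (adjusted p = 0.0520). The member that rose was Rabgap1l, a Rab GTPase regulator gene, at 329 and 392 CPM against 93.1 and 81.7 CPM. Across the fits that left out a library there were 0 (without Sirpa+ DC replicate 1) to 18 (without PBS pDC replicate 2) lower members. Without YG+ pDC replicate 1 or 2, 1 and 0 of these 6 called genes were still called, and without Sirpa+ DC replicate 1 or 2 the numbers were 0 and 0, with a largest adjusted p of 0.235 for Socs2 without YG+ pDC replicate 2. Opposite-strand genes cover 44.0% of the exon length of Rabgap1l and 7.68% of Cdkn1a.

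Among 19 costimulatory and co-inhibitory genes tested, 1 fell and 0 rose (median -0.73). That gene was Havcr2, which encodes the inhibitory receptor TIM-3, at 25.3 and 34.0 CPM in YG+ pDCs against 220.03 and 285 CPM (-3.10 ± 0.45, adjusted p = 0.00381), and it was called whichever library was left out. The other members named here did not pass. Cd40, a receptor for T cell help, was 26.7 and 26.8 CPM against 84.6 and 65.8 CPM (adjusted p = 0.107). Cd83, a surface marker of mature DCs, was 339 and 209 CPM against 537 and 698 CPM (adjusted p = 0.132). Cd274, the PD-L1 gene, was 169 and 104 CPM against 292 and 279 CPM (adjusted p = 0.154). With a library left out, 1 (without Sirpa+ DC replicate 1) to 6 (without PBS pDC replicate 1) members of the list were lower. Cd274 has 22.0% of its exon length under an opposite-strand gene.

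Homing genes went both ways, with 5 of 29 tested higher and 3 lower (median 0.23). Leaving out a library gave 1 (without Sirpa+ DC replicate 2) to 6 (without PBS pDC replicate 2) higher and 0 (without Sirpa+ DC replicate 2) to 6 (without PBS pDC replicate 2) lower members. Itgal, the alpha chain of LFA-1, was 406 and 467 CPM in YG+ pDCs against 46.5 and 109.7 CPM (2.43 ± 0.49, adjusted p = 0.0143). Ccr6, a receptor for CCL20, was 94.1 and 82.3 CPM against 4.23 and 9.97 CPM (3.43 ± 0.71). Ccr9, given above and not counted again below, was called too. Lower was Itgae, the CD103 gene, at 19.7 and 19.7 CPM against 131 and 148 CPM (-2.81 ± 0.45). Cx3cr1, the fractalkine receptor gene, was 19.7 and 21.5 CPM against 144 and 169 CPM (-2.92 ± 0.53). Transcripts of the fractalkine receptor and CD103 were thus low but present in both YG+ pDC libraries. The groups did not overlap, as in every called gene and in 62.0% of all genes tested. The fits that left out a library kept 2 (YG+ pDC replicate 1), 1 (YG+ pDC replicate 2), 1 (Sirpa+ DC replicate 1) and 0 (Sirpa+ DC replicate 2) of these 4 calls, with a largest adjusted p of 0.165 for Itgal without Sirpa+ DC replicate 1. Cx3cr1 has 2.00% of its exon length under an opposite-strand gene.

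Chemokine, cytokine and NF-kB genes were lower where they were called. Of 32 chemokine and cytokine genes in the files, 17 had enough counts, and 5 of these fell and 0 rose (median -1.24). Il1b, the gene of the inflammatory cytokine IL-1 beta, was 26.7 and 28.6 CPM in YG+ pDCs against 474 and 686 CPM (-4.38 ± 0.46, adjusted p = 0.00137). Ccl17, which attracts CCR4+ T cells, was 2.81 and 1.79 CPM against 84.6 and 61.8 CPM (-4.78 ± 0.75). Ccl5, a chemokine gene, was 22.5 and 42.9 CPM against 212 and 177 CPM (-2.57 ± 0.45). IL-1 beta and CCL17 transcripts were thus more than 15-fold lower in each YG+ pDC library than in either Sirpa+ DC library. Osm, the oncostatin M gene, was 39.3 and 14.3 CPM against 182 and 281 CPM (-3.08 ± 0.52). Ccl22, another CCR4 ligand gene, was 451 and 345 CPM against 1189 and 1035 CPM and missed the threshold (adjusted p = 0.0528). The fifth called member was Cxcl16, given above and not counted again below. Of 30 NF-kB pathway and feedback genes, 5 fell and 0 rose (median -0.43). Relb, the NF-kB subunit gene that conventional DCs need, was 81.5 and 91.3 CPM against 279 and 255 CPM (-1.63 ± 0.43, adjusted p = 0.0458). Ptgs2, the inducible prostaglandin synthase gene, was 23.9 and 39.4 CPM against 190.4 and 203 CPM (-2.64 ± 0.50). Nlrp3, an inflammasome sensor gene, was 36.5 and 23.3 CPM against 195 and 281 CPM (-2.98 ± 0.57). In all genes of this paragraph the higher YG+ pDC library was below the lower Sirpa+ DC library. The groups were likewise apart, in one direction or the other, in every called gene and in 62.0% of all genes tested. With a library left out there were 2 (without Sirpa+ DC replicate 2) to 8 (without PBS pDC replicate 2) lower members of the chemokine list and 0 (without Sirpa+ DC replicate 2) to 8 (without PBS pDC replicate 2) of the NF-kB list. Of the 7 called genes named here, 4, 4, 2 and 1 were still called without YG+ pDC replicate 1, YG+ pDC replicate 2, Sirpa+ DC replicate 1 and Sirpa+ DC replicate 2, with a largest adjusted p of 0.398 for Relb without YG+ pDC replicate 1. Il1b was called whichever library was left out. In scaling by library size alone, Relb (adjusted p = 0.0631) did not pass. Il1b has 27.3% of its exon length under an opposite-strand gene.

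MHC class II genes were lower in YG+ pDCs where they were called. Among 15 class II presentation genes tested, 3 fell and 0 rose (median -1.08). H2-Ab1, a beta chain gene, was 2392 and 1886 CPM against 8179 and 10299.7 CPM (-2.11 ± 0.44, adjusted p = 0.0155). H2-Eb1, another beta chain gene, was 1740.3 and 1465 CPM against 5492 and 7339 CPM (-2.00 ± 0.44). H2-Aa, an alpha chain gene, was 1719 and 1601 CPM against 4849 and 6619 CPM (-1.79 ± 0.44). Class II transcripts were thus abundant in YG+ pDCs and more so in Sirpa+ DCs. Cd74, the invariant chain gene, was 6062 and 6035 CPM against 16295 and 18257 CPM and did not pass (adjusted p = 0.0629). The fit of the 4 libraries alone called 9 of the class II genes lower, and leaving out a library gave 0 (without Sirpa+ DC replicate 1) to 8 (without PBS pDC replicate 2). Of 19 class I presentation genes, 0 fell and 0 rose (median -0.20), with 1 lower in the fit of the 4 libraries alone. Without YG+ pDC replicate 1 or 2, 0 and 0 of these 3 called genes were still called, and without Sirpa+ DC replicate 1 or 2 the numbers were 0 and 0, with a largest adjusted p of 0.435 for H2-Aa without YG+ pDC replicate 2. H2 genes have close paralogs that can share reads, and 9.31% of the exon length of H2-Eb1 lies under an opposite-strand gene.

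Conventional DC genes were lower in YG+ pDCs where they were called. Of 19 genes of Sirpa+ conventional DCs, 3 fell and 0 rose (median -0.46). S100a4, a calcium-binding protein gene, was 46.4 and 28.6 CPM in YG+ pDCs against 406 and 486 CPM (-3.55 ± 0.70). Epcam, an adhesion gene of epithelia and some DCs, was 23.9 and 17.9 CPM against 118 and 102 CPM (-2.36 ± 0.48). Relb, given above and not counted again below, was the third. Genes of the other conventional subset, cDC1, had 4 of 13 tested lower and 0 higher (median -1.34). Clec9a, a receptor for dead cells, was 61.8 and 87.7 CPM against 322 and 237 CPM (-1.90 ± 0.47). Xcr1, the chemokine receptor gene that marks cDC1, was 15.5 and 8.95 CPM against 84.6 and 69.8 CPM. Batf3, the factor that cDC1 need, was 7.02 and 1.79 CPM against 38.1 and 49.8 CPM. Transcripts of these cDC1 markers were thus present in both libraries of the Sirpa+ sort. The summed level of the list was 2977 to 3402 CPM in Sirpa+ DCs, 1361 to 1414 CPM in YG+ pDCs and 1217 to 2188 CPM in PBS pDCs. The part of cDC1 in the results was not tested. Of 14 core conventional DC genes, 3 fell and 0 rose (median -0.88). Nfil3, a transcription factor gene, was 84.3 and 73.4 CPM against 279 and 313 CPM (-1.91 ± 0.42). Csf2ra, a GM-CSF receptor chain gene, was 77.3 and 87.7 CPM against 254 and 261 CPM (-1.64 ± 0.41). Zbtb46, which marks conventional DCs, was 42.1 and 34.0 CPM against 71.9 and 109.7 CPM and did not pass (adjusted p = 0.127). Leaving out a library gave 0 (without Sirpa+ DC replicate 1) to 5 (without PBS pDC replicate 2), 0 (without Sirpa+ DC replicate 2) to 10 (without PBS pDC replicate 2) and 0 (without Sirpa+ DC replicate 1) to 5 (without PBS pDC replicate 2) lower members of these 3 lists. The fits that left out a library kept 1 (YG+ pDC replicate 1), 0 (YG+ pDC replicate 2), 0 (Sirpa+ DC replicate 1) and 0 (Sirpa+ DC replicate 2) of these 7 calls, with a largest adjusted p of 0.488 for Batf3 without YG+ pDC replicate 2. In DESeq2, Batf3 (adjusted p = 0.0565) did not pass.

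Monocyte and macrophage genes were mostly lower in YG+ pDCs where they were called. Of 26 tested, 4 fell and 1 rose (median -0.79). The summed level of the list was 4999 to 7654 CPM in YG+ pDCs, 3087 to 3996 CPM in PBS pDCs and 8167 to 13633 CPM in Sirpa+ DCs. Tgfbi, a matrix protein gene of monocytes and macrophages, was 98.3 and 78.7 CPM in YG+ pDCs against 689.7 and 1244 CPM (-3.45 ± 0.48, adjusted p = 0.00310). Csf1r, the M-CSF receptor gene, was 184 and 100.2 CPM against 546 and 803 CPM (-2.24 ± 0.48). C1qa, a complement gene, was 169 and 41.2 CPM against 449 and 779.6 CPM (-2.54 ± 0.62). YG+ pDC replicate 1 was the higher of its group in each of these genes, by more than 4-fold in C1qa. Lyz2, a lysozyme gene with the close paralog Lyz1, was 559 and 229 CPM against 1473 and 2546 CPM and did not pass (adjusted p = 0.0574). Across the fits that left out a library there were 1 (without Sirpa+ DC replicate 1) to 9 (without PBS pDC replicate 2) lower members. Of the 3 called genes named here, 2, 1, 1 and 1 were still called without YG+ pDC replicate 1, YG+ pDC replicate 2, Sirpa+ DC replicate 1 and Sirpa+ DC replicate 2, with a largest adjusted p of 0.333 for C1qa without YG+ pDC replicate 2. Tgfbi was called whichever library was left out. Csf1r has 15.1% of its exon length under an opposite-strand gene.

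Uptake genes were lower in YG+ pDCs where they were called. Of 21 genes for uptake of dying cells and scavenger receptors, 3 fell and 0 rose (median -0.54), where 4.09% of all genes tested fell and 3.07% rose. Clec7a, the beta-glucan receptor gene, was 135 and 76.9 CPM against 876 and 951 CPM (-3.10 ± 0.63, adjusted p = 0.0143). Mfge8, which bridges dying cells to phagocytes, was 14.0 and 17.9 CPM against 106 and 85.7 CPM (-2.56 ± 0.55). Itgb5, an integrin gene, was 67.4 and 14.3 CPM against 262 and 269 CPM (-2.66 ± 0.59). The receptor kinase gene Axl did not pass, at 289 and 161 CPM against 410.4 and 628 CPM (adjusted p = 0.133). Of 35 lysosome genes, 1 rose (Ctsl) and 1 fell (Cd63), with a median of -0.12. These shares are close to those over all genes, and both calls were given above and are not counted again below. Of 26 cholesterol and lipid genes, 2 fell and 0 rose (median -0.35). Fabp5, a fatty acid carrier gene, was 32.3 and 28.6 CPM against 135 and 289 CPM (-2.81 ± 0.52). Apoe, a lipid carrier gene, did not pass at 2777 and 1134 CPM against 2471 and 4185 CPM (adjusted p = 0.406). YG+ pDC replicate 1 lay between the Sirpa+ DC libraries in Apoe, so the groups overlapped. With a library left out there were 0 (without Sirpa+ DC replicate 1) to 7 (without PBS pDC replicate 2) lower members of the uptake list. Without YG+ pDC replicate 1 or 2, 3 and 0 of these 4 called genes were still called, and without Sirpa+ DC replicate 1 or 2 the numbers were 1 and 0, with a largest adjusted p of 0.243 for Itgb5 without YG+ pDC replicate 2.

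Lists of metabolism, interferon response and stress had 1 to 3 called members each, where 3.07% of all genes tested rose and 4.09% fell. A single call in a list of this size is near those shares. Of 20 glycolysis and hypoxia genes, 3 fell and 0 rose (median -0.17). Vegfa, a growth factor gene induced by hypoxia, was 33.7 and 42.9 CPM in YG+ pDCs against 309 and 305 CPM. Hk2, a hexokinase gene, was 164 and 104 CPM against 402 and 405 CPM (-1.58 ± 0.42). Pfkfb3, a glycolysis activator gene, was 214 and 147 CPM against 487 and 534 CPM (-1.50 ± 0.41). Of 36 interferon-stimulated genes, 1 fell and 0 rose (median -0.69). It was Oas2, an antiviral RNA sensor gene with close paralogs, at 25.3 and 12.5 CPM against 102 and 79.7 CPM (-2.21 ± 0.53). The fit of the 4 libraries alone called 12 of this list lower and 1 higher. Immediate early and stress genes had 1 of 27 higher and 1 lower (median -0.25). Klf2, a factor of quiescent lymphocytes, was 211 and 259 CPM against 59.2 and 15.9 CPM (2.78 ± 0.57). Ier3, an immediate early gene, was 25.3 and 19.7 CPM against 118 and 152 CPM (-2.57 ± 0.46). With a library left out, the glycolysis list had 0 (without Sirpa+ DC replicate 1) to 4 (without PBS pDC replicate 2) lower members, the interferon-stimulated list 0 (without Sirpa+ DC replicate 1) to 11 (without PBS pDC replicate 2) and the immediate early list 0 (without Sirpa+ DC replicate 1) to 8 (without PBS pDC replicate 1). The fits that left out a library kept 1 (YG+ pDC replicate 1), 0 (YG+ pDC replicate 2), 1 (Sirpa+ DC replicate 1) and 0 (Sirpa+ DC replicate 2) of these 6 calls, with a largest adjusted p of 0.616 for Pfkfb3 without YG+ pDC replicate 2. In scaling by library size alone, Hk2 (adjusted p = 0.0627) and Pfkfb3 (adjusted p = 0.0666) did not pass. In upper quartile scaling, Pfkfb3 (adjusted p = 0.0535) did not pass. In the fit with no filter on low counts, Pfkfb3 (adjusted p = 0.0663) did not pass. In the filter at 10 CPM, Pfkfb3 (adjusted p = 0.0542) did not pass.

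Of 19 TGF-beta pathway and tolerance genes, 1 rose and 2 fell (median 0.01). Over all genes tested 3.07% rose and 4.09% fell, and a single call in a list of this paragraph is near those shares. Tgfbr2, a TGF-beta receptor gene, was 506 and 497 CPM in YG+ pDCs against 173 and 189 CPM (1.46 ± 0.40, adjusted p = 0.0496). Lgals3, a galectin gene, was 54.8 and 48.3 CPM against 186 and 317 CPM (-2.29 ± 0.48), and the other lower member was Tgfbi. Of 25 apoptosis and p53 genes, 1 rose and 2 fell (median -0.09). Trp53inp1, a p53 target gene, was higher at 117 and 118 CPM against 38.1 and 27.9 CPM (1.86 ± 0.45). Bcl2a1a, an apoptosis inhibitor gene with near-identical copies, was lower at 12.6 and 8.95 CPM against 84.6 and 47.8 CPM (-2.53 ± 0.63), as was Cdkn1a. Secretory pathway genes had 1 of 29 higher (Mzb1) and 1 lower, with a median of 0.51. The lower one was the chaperone cofactor gene Sdf2l1 at 68.8 and 66.2 CPM against 233 and 245 CPM. Xbp1, the factor behind secretory cell fate, was 569 and 884 CPM against 334 and 233 CPM and did not pass (adjusted p = 0.0896). Of 24 cell cycle genes, 1 fell and 0 rose (median 0.23). It was the cyclin gene Ccnb2 at 21.1 and 16.1 CPM against 106 and 71.8 CPM. The 6 called genes counted next are Tgfbr2, Lgals3, Trp53inp1, Bcl2a1a, Sdf2l1 and Ccnb2, without Tgfbi, Mzb1 and Cdkn1a, which were given above. Of the 6 called genes named here, 0, 0, 0 and 0 were still called without YG+ pDC replicate 1, YG+ pDC replicate 2, Sirpa+ DC replicate 1 and Sirpa+ DC replicate 2, with a largest adjusted p of 0.442 for Tgfbr2 without YG+ pDC replicate 2. In DESeq2, Bcl2a1a (adjusted p = 0.0517) and Trp53inp1 (adjusted p = 0.0706) did not pass. In RLE scaling, Tgfbr2 (adjusted p = 0.0603) did not pass. In the fit with no filter on low counts, Tgfbr2 (adjusted p = 0.0569) did not pass. In the filter at 10 CPM, Tgfbr2 (adjusted p = 0.0616) did not pass. In the fit without Rn45s, Malat1 and the Xist locus, Tgfbr2 (adjusted p = 0.0541) did not pass. The plot of calls by gene list sets these lists beside those above.

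**Figure D3:**
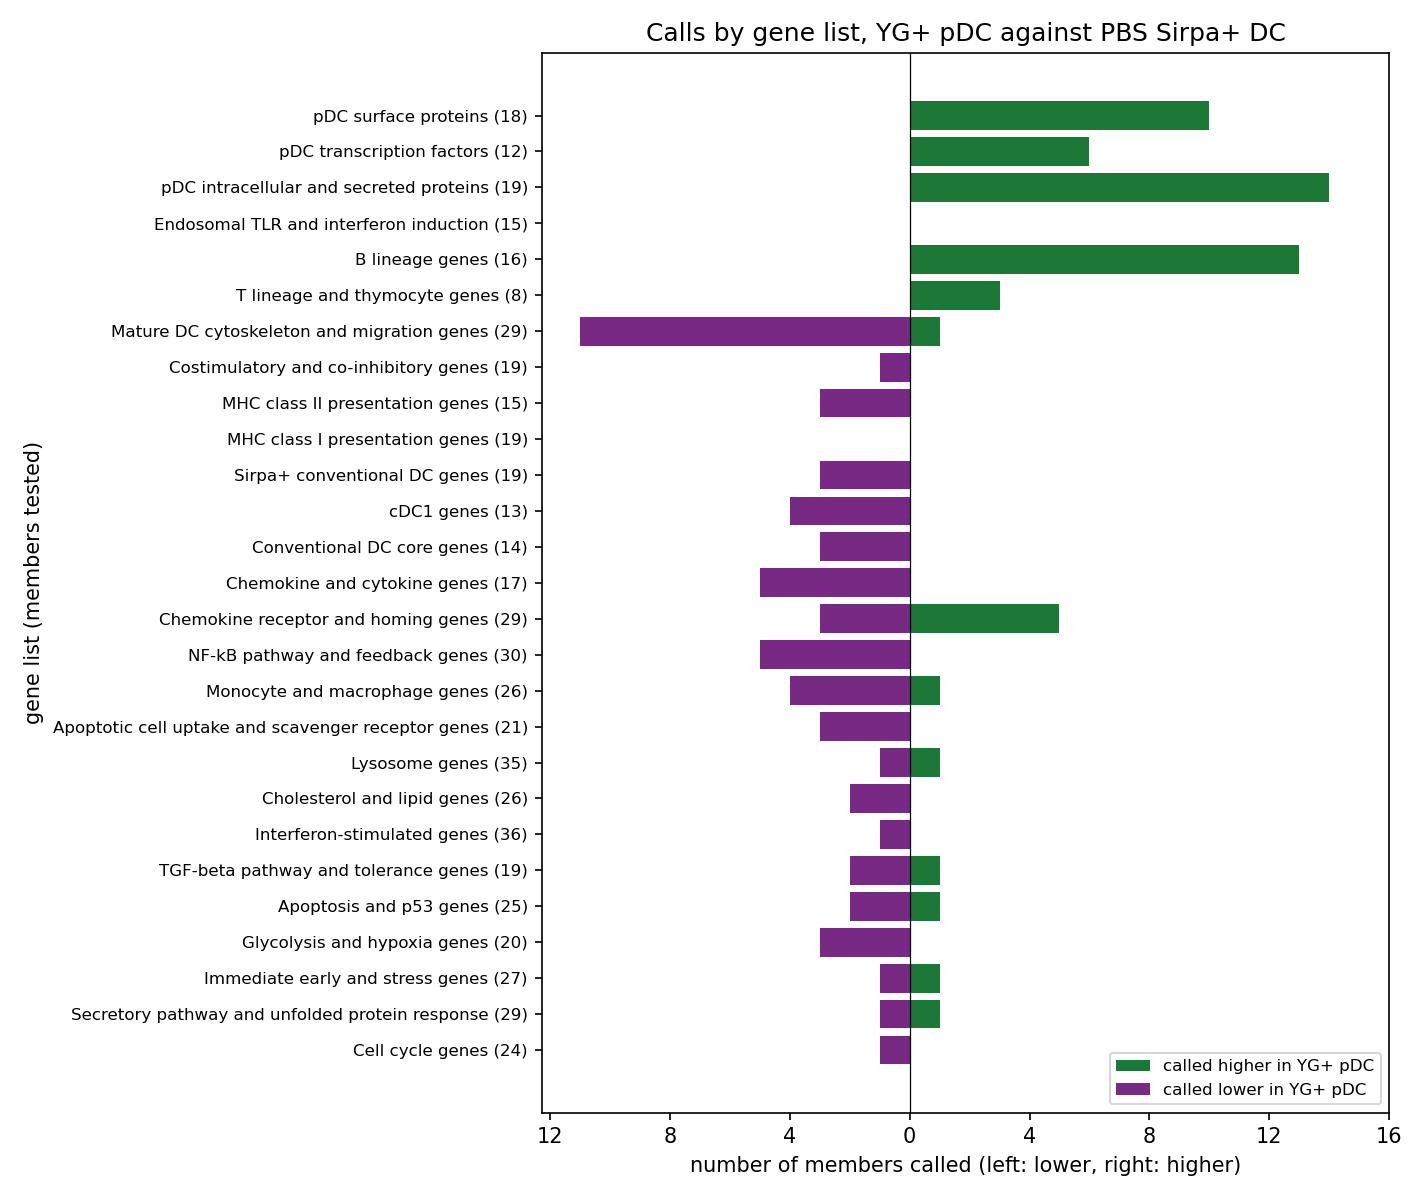
Number of members called higher in YG+ pDCs (green, to the right) and lower (purple, to the left) for each gene list with at least 8 members tested, the number tested in brackets. Calls in the pDC and B lineage lists lie to the right, up to 14 members, and those in the mature DC list to the left, with 11. List members were chosen with earlier results of these data known.

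Markers of cell types outside the gates were tested in small numbers. The neutrophil list summed to 114 to 123 CPM in YG+ pDCs and 29.6 to 51.8 CPM in Sirpa+ DCs, with 1 and 10 of 14 members at 0 in both libraries of YG+ pDCs and of Sirpa+ DCs. Ngp, a granule protein gene, was called at 26.7 and 39.4 CPM in YG+ pDCs without a count in Sirpa+ DCs. S100a9, an abundant neutrophil protein gene, was 25.3 and 17.9 CPM without a count in Sirpa+ DCs, and Ltf, the lactoferrin gene, 11.2 and 12.5 CPM. All 3 were found in both YG+ pDC libraries and in neither Sirpa+ DC library, and the part of neutrophils in the results was not tested. The fibroblast and endothelial list summed to 261 to 333 CPM in YG+ pDCs and 156 to 203 CPM in Sirpa+ DCs, with 8 and 6 of 14 members at 0 in both libraries of YG+ pDCs and of Sirpa+ DCs. Cdh5, the VE-cadherin gene, was called at 131 and 189.7 CPM against 16.9 and 7.97 CPM (3.79 ± 0.57, adjusted p = 0.00424). Pecam1, an adhesion gene of endothelium and leukocytes, was called at 84.3 and 89.5 CPM against 21.2 and 25.9 CPM (1.84 ± 0.46). The fibroblast genes Col1a1, Dcn and Pdgfra had no count in the 4 libraries. The NK list summed to 146 to 189.7 CPM in YG+ pDCs and 253 to 309 CPM in Sirpa+ DCs, with Ncr1, Nkg7, Gzma, Gzmb and Prf1 at 0 and Ccl5 as its called member. The thymic epithelial list summed to 100.2 to 128 against 275 to 279 CPM, with Foxn1 and Krt14 at 0 and Epcam as its called member. The erythroid and platelet list summed to 91.3 to 111 against 106 to 199 CPM, with Hba-a1 and Hba-a2 at 0. Its called member was Gp9, a platelet glycoprotein gene, at 11.2 and 7.16 CPM against 59.2 and 39.9 CPM (adjusted p = 0.0496). The 4 called genes counted next are Ngp, Cdh5, Pecam1 and Gp9. Without YG+ pDC replicate 1 or 2, 1 and 1 of these 4 called genes were still called, and without Sirpa+ DC replicate 1 or 2 the numbers were 1 and 0, with a largest adjusted p of 0.460 for Gp9 without YG+ pDC replicate 2. In DESeq2, Gp9 (adjusted p = 0.0816) and Pecam1 (adjusted p = 0.0894) did not pass. Cdh5 has 2.57% of its exon length under an opposite-strand gene.

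PBS pDCs, sorted with the gate of the YG+ pDCs, were set beside them for the genes above. The PBS pDC libraries differed from each other, with r = 0.73 between them in log2 CPM over 8141 genes. PBS pDC replicate 2 had r = 0.86 and 0.90 with YG+ pDC replicate 1 and 2, and PBS pDC replicate 1 had 0.64 and 0.70. Of uniquely placed reads, 0.842% and 2.13% lay in genes in PBS pDC replicate 1 and 2. The part of this difference in the results was not tested. Against the same Sirpa+ DC libraries, PBS pDCs had 931 called genes (11.4% of those tested), 4.54% higher and 6.89% lower. The comparisons share the Sirpa+ DC libraries, so their counts are not independent of each other. In the mature DC list 18 members were lower in PBS pDCs and 11 in YG+ pDCs. In the monocyte and macrophage list the numbers were 15 and 4, in the uptake list 9 and 3, and in the chemokine list 10 and 5. In the pDC surface list 14 members were higher in PBS pDCs and 10 in YG+ pDCs, and in the B lineage list 13 and 13. These counts do not test a difference between the comparisons. That test is the one of YG+ pDCs against PBS pDCs, which called 0 of 8141 genes in edgeR and 0 in limma-voom, with 929 at an unadjusted p under 0.05. DESeq2 called 111 genes, of which 16 were higher in YG+ pDCs and 95 lower. When edgeR was run with no filter on low counts it called 141, of which 46 were higher in YG+ pDCs and 95 lower. Without PBS pDC replicate 2 the number in edgeR was 870, without PBS pDC replicate 1 it was 3, and without YG+ pDC replicate 2 it was 14.

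Some genes lower in YG+ pDCs had a common order over the 6 libraries. Tgfbi was 12.8 and 6.94 CPM in PBS pDCs, 98.3 and 78.7 CPM in YG+ pDCs and 689.7 and 1244 CPM in Sirpa+ DCs. Il1b was 6.38 and 6.94 CPM in PBS pDCs, 26.7 and 28.6 CPM in YG+ pDCs and 474 and 686 CPM in Sirpa+ DCs. Cxcl16 was 44.6 and 32.4 CPM in PBS pDCs, 114 and 89.5 CPM in YG+ pDCs and 939 and 1220.2 CPM in Sirpa+ DCs. In each of the 3, both PBS pDC libraries were lowest and both Sirpa+ DC libraries highest. The same order held for Cd63 (25.5 and 6.94 CPM in PBS pDCs), Ptgs2 (6.38 and 0 CPM), Ccl5 (6.38 and 6.94 CPM), Itgb5 (6.38 and 2.31 CPM) and Fabp5 (0 and 6.94 CPM). These genes were picked after their values were seen. They do not stand for all differences between the pDC groups, where DESeq2 called 95 genes lower in YG+ pDCs and 16 higher. In PBS pDC replicate 1 and 2, 3 counts were 19.1 and 6.94 CPM. The PBS pDC values of Tgfbi, Il1b, Ptgs2, Ccl5, Itgb5 and Fabp5 were thus 3 counts or fewer, where the order is uncertain. PBS pDC replicate 1 had the lowest gene total of all libraries, 177844 counts. The step from PBS pDCs to YG+ pDCs had an adjusted p of 0.235 for Tgfbi, 0.317 for Il1b, 0.319 for Cxcl16 and 0.315 for Cd63, none past the threshold. The pDC markers Siglech, Klk1, Ccr9 and Tcf4 had similar levels in the pDC groups. Siglech was 1059 and 928 CPM in PBS pDCs, Klk1 376 and 312 CPM, Ccr9 702 and 877 CPM and Tcf4 376 and 710.4 CPM. The libraries of the pDC groups overlapped in all 4. The list of intracellular and secreted pDC proteins summed to 4634 to 5975 CPM in YG+ pDCs and to more, 6161 to 6238 CPM, in PBS pDCs. Sums of the pDC surface list (5138 to 6848 CPM in YG+ pDCs, 6455 to 6916 CPM in PBS pDCs) overlapped. Those of the pDC transcription factor list (4670 to 5892 and 3878 to 6083 CPM) overlapped too. The plot of 14 genes over the 6 libraries shows the order of the groups.

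**Figure D4:**
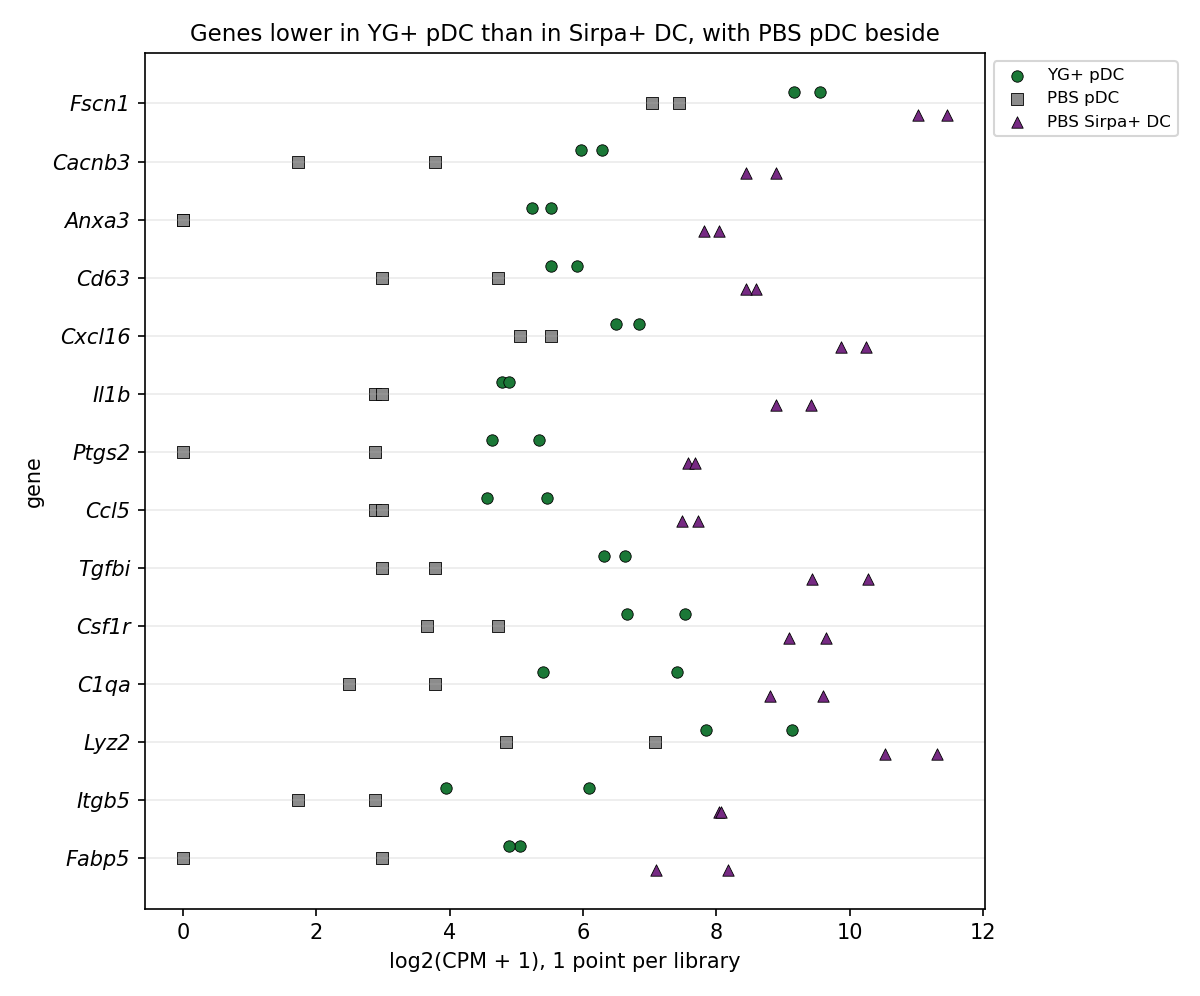
Level of 14 genes with lower means in YG+ pDCs than in Sirpa+ DCs (rows) as log2(CPM + 1), with 1 symbol per library of YG+ pDCs (green circles), PBS pDCs (grey squares) and Sirpa+ DCs (purple triangles). In each row the circles lie to the left of the triangles and the squares to the left of the circles. The step between squares and circles passed the threshold for none of them.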

How the data were processed

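RNA from sorted mouse thymic DCs was sequenced in 6 libraries, 2 per group. The deposited unit is raw counts per gene symbol, and per the submitters' processing notes bcl2fastq 2.17 and mm10 were used. For the authors' aligner, counter, annotation and strand setting the sources used here give nothing. Summary lines that name no gene (unassigned reads) held 97.7% to 99.5% of all records per library and were left out. Gene totals ranged from 177844 to 713966, and 3 counts in a library were 4.21 to 19.1 CPM. The floor used for genes at 0 was 3 counts over the group, 4.07 CPM in Sirpa+ DCs and 2.36 CPM in YG+ pDCs.

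From these counts, edgeR 4.0.16 (R 4.3.3) fitted all 6 libraries with TMM scaling (factors 0.924 to 1.09) and its filter on low counts, which left 8141 genes. The quasi-likelihood test had 3 residual degrees of freedom, and every adjusted p is from it with Benjamini-Hochberg adjustment over all genes tested. The biological coefficient of variation was 33.0%. The test was checked on simulated counts of 8141 genes for YG+ pDCs against Sirpa+ DCs. It called 2.82% of genes changed 2-fold, 44.3% at 4-fold, 86.6% at 8-fold and 0.0894% of unchanged genes. Fewer genes were changed in the simulation than were called in the data, and all groups had the same spread per gene. The shares called may therefore differ in the data. Alternatives were other scalings and filters, DESeq2 1.42.0, limma-voom 3.58.1, a test against 1.5-fold, the 4 libraries alone, a replicate block and each library left out.

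Named genes are the markers and gated proteins, the top of the largest called changes (20 CPM or more on average in the group with the higher level, no overlap, no opposite-strand gene, predicted gene or receptor segment), and list members with the smallest p or highest level. Some genes that met the rule are not reported here. Members and lists were chosen with earlier results of these data known. Opposite-strand overlap was read from an annotation that matched 21785 of 23420 symbols. Promoter windows are from RefSeq, which had no entry used here for Cxcl16.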

Additional observations from a re-analysis of the deposited data

How the results depend on the processing

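All counts here are genes called at an adjusted p of 0.05. The 583 calls in YG+ pDCs against Sirpa+ DCs became 604 and 600 with RLE and upper quartile scaling, 635 by library size alone, 599 in DESeq2, 675 in limma-voom and 427 in a test against 1.5-fold. Without a filter on low counts there were 894 (395 higher), and in the 4 compared libraries alone 1480 (591 higher and 889 lower). Leaving out a library gave 69 (Sirpa+ DC replicate 1) to 1487 (PBS pDC replicate 1) calls, 34 to 622 of them higher and 32 to 867 lower. For PBS pDCs against Sirpa+ DCs the 931 calls became 214 to 1297 when a library was left out. For YG+ pDCs against PBS pDCs the 0 calls became 141 with no filter, 111 in DESeq2 and 0 to 870 when a library was left out. The cause of these changes was not tested. A replicate block gave 635 calls in YG+ pDCs against Sirpa+ DCs. The numbers pair no libraries by the labels, and deviations of same-numbered YG+ pDC and Sirpa+ DC libraries had r = -0.10 over 8141 genes (YG+ pDC with PBS pDC -0.12, PBS pDC with Sirpa+ DC 0.30). Of 117 named genes tested, none changed direction in any alternative. Calls lost ranged from 0 to 68 of them, the most without Sirpa+ DC replicate 2, and 17 genes gained a call in the fit of the 4 libraries alone. At the depth and number of libraries used here, simulated 2-fold changes were called in 2.82% of genes. That simulation had the same spread in all groups and fewer changed genes than the data had calls, so the share may differ in the data. A test against 1.5-fold lost 18 of the named calls, Fscn1 among them (adjusted p = 0.0518), and the replicate block lost 3, Batf3, Gp9 and Tgfbr2 (adjusted p = 0.0554, 0.0548 and 0.0526).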

Other observations

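Several genes outside the lists were called in YG+ pDCs against Sirpa+ DCs and in each of the 6 fits that left out a library. They were chosen after their values were seen. Values with ± are log2 fold changes with their SE. Higher was Cd69, an activation and tissue retention receptor gene, at 268 and 359.7 CPM in YG+ pDCs against 16.9 and 23.9 CPM in Sirpa+ DCs (3.87 ± 0.49, adjusted p = 0.00188 in edgeR). Il9r, the IL-9 receptor gene, was 178 and 152 CPM in YG+ pDCs against 0 and 5.98 CPM in Sirpa+ DCs (5.29 ± 0.67, adjusted p = 0.00203 in edgeR). Prkca, a protein kinase C gene, was 82.9 and 168 CPM in YG+ pDCs against 0 and 1.99 CPM in Sirpa+ DCs (6.27 ± 0.83, adjusted p = 0.00246 in edgeR). PBS pDCs had 185 and 211 CPM of Cd69, 102 and 127 CPM of Il9r and 159 and 185 CPM of Prkca. Lower was Mmp12, the macrophage elastase gene, at 2.81 and 1.79 CPM in YG+ pDCs against 118 and 95.7 CPM in Sirpa+ DCs (-5.33 ± 0.69, adjusted p = 0.00290 in edgeR). Rdh5, a retinol dehydrogenase gene, was 16.9 and 10.7 CPM in YG+ pDCs against 410.4 and 149.5 CPM in Sirpa+ DCs (-4.27 ± 0.60, adjusted p = 0.00313 in edgeR). Nav1, a microtubule-binding protein gene, was 35.1 and 28.6 CPM in YG+ pDCs against 372 and 293 CPM in Sirpa+ DCs (-3.36 ± 0.43, adjusted p = 0.00207 in edgeR). PBS pDCs had 0 and 0 CPM of Mmp12, 6.38 and 9.26 CPM of Rdh5 and 12.8 and 11.6 CPM of Nav1. In each of these 6 genes the libraries of YG+ pDCs and Sirpa+ DCs did not overlap, as in every called gene and in 62.0% of all genes tested. Opposite-strand genes cover 8.77%, 4.63% and 5.39% of the exon length of Prkca, Mmp12 and Nav1.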
